A study of Mus musculus with 68 samples.

Results

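The 40 genes described here load, fire and run DNA replication forks or drive entry into S phase at the G1/S boundary of the cell cycle. They were chosen by name and function and not by a rule on measured values, but with earlier results of these data known. By role, 11 recognise or license replication origins, 6 activate the helicase, 9 are polymerase subunits, the sliding clamp or its loader, 2 join Okazaki fragments, 4 supply nucleotides, 3 assemble chromatin or maintain DNA methylation, and 5 are E2F factors or E-type cyclins. All 40 symbols were found among the 27179 gene identifiers of the deposited count table, 25275 of which had a gene symbol. All 40 also passed the filter on low counts, which kept 14897 genes, and the smallest count of any member in any culture was 9.

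The RNA came from primary cultures of mesenchymal stromal cells (MSCs), the plastic-adherent connective tissue cells that can be grown from bone, here from mouse long bones. Het 12M (n = 6 cultures) was from 12-month-old Ezh2fl/+:Prxx-1-Cre mice and WT 12M (n = 4) from 12-month-old Ezh2+/+:Prrx-1-Cre mice. Het 3M (n = 3) and WT 3M (n = 4) were from mice of the same genotypes aged 3 months. By label, Het 12M held 1 male and 5 female cultures and Het 3M 2 male and 1 female. WT 12M and WT 3M each held 2 male and 2 female cultures, so labelled sex was not balanced between the groups. The series text names 4 pairwise comparisons of these groups with 3 biological samples each, against the 3 to 6 given by the labels. All 4 groups carry the Prrx1-driven Cre, and Het mice have in addition 1 floxed allele of Ezh2, which encodes the catalytic subunit of the Polycomb repressive complex that methylates histone H3 on lysine 27. Prrx1 is active in limb mesenchyme, so cells of other origin in a culture would keep both Ezh2 alleles. The labels number the cultures S1 to S17 and do not say whether each came from its own mouse, so p-values measure the spread between cultures, which may in part be technical.

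In G1, the origin recognition complex, Cdc6 and Cdt1 load the hexameric MCM helicase onto DNA. Cyclin E with its kinase and the Cdc7-Dbf4 kinase then add Cdc45 and the GINS complex, which starts unwinding, and polymerases, clamp and ligase copy both strands while ribonucleotide reductase, thymidylate synthase and thymidine kinase feed them. Most of these genes are transcribed late in G1 by E2F factors, which retinoblastoma-family proteins hold back in resting cells, so their summed transcript level is widely read as a sign of how many cells in a culture are cycling. MSCs divide in culture to an extent that varies with the donor, passage and density.

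The promoters were searched for E2F motifs. The choice of genes did not use these letters, but most of the genes are known as E2F targets, so a high share was likely in advance. RefSeq promoter windows (build GRCm38.p6) were found for 34 of the 40 members by symbol. The 250 bases before the transcription start were searched on both strands for the 8-letter E2F motifs TTTCCCGC, TTTCGCGC, TTTGCCGC and TTTGGCGC, which can overlap each other head to head. A match was present in 9 of 34 members (26.5%), against 423 of 11316 tested genes with a window (3.74%) and 583 of all 27025 genes of the promoter table (2.16%). By role the matches lay in 5 of 10 licensing genes with a window (Cdc6, Mcm5, Mcm6, Mcm7 and Orc1), in Gins3 among 4 helicase-activation genes, in Pola1 and Rfc3 among 7 polymerase and clamp-loader genes, and in Uhrf1 among 3 chromatin genes. No match was found in the windows of the 2 Okazaki-joining genes, the 4 nucleotide-supply genes or the 4 E2F and cyclin E genes with a window, which says only that these exact letters are not there. The CCAAT motif, on either strand, was in 20 of 34 members (58.8%) against 40.1% of tested genes, and the motif TTTGAA, known as the CHR element of late cell-cycle genes, in 7 of 34 (20.6%) against 12.8%. A match is a string of letters, not a measured binding site. Windows of 100 bases that hold the E2F matches of 6 members are printed 5′ to 3′ on the gene's strand, with the matched letters in capitals, because in Mcm5 and Mcm6 a pair of motifs on opposite strands share letters. Mcm5 is at chr8:75109283-75109382 on the plus strand, Mcm6 at chr1:128359730-128359829 on the minus strand, Cdc6 at chr11:98907936-98908035 on the plus strand, Orc1 at chr4:108579350-108579449 on the plus strand, Pola1 at chrX:93632271-93632370 on the minus strand and Uhrf1 at chr17:56304063-56304162 on the plus strand.
Mcm5: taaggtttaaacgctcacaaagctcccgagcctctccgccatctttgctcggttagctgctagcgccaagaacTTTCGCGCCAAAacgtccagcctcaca
Mcm6: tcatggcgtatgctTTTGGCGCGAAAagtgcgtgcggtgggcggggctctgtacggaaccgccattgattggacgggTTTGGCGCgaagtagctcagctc
Cdc6: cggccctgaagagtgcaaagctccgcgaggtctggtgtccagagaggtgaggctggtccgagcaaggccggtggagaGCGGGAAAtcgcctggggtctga
Orc1: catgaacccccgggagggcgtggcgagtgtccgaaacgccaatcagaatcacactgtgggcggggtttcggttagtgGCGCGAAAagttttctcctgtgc
Pola1: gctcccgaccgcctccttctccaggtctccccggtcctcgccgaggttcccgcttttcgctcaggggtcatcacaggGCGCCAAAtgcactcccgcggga
Uhrf1: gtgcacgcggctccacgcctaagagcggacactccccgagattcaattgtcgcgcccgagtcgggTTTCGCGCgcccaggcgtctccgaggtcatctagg

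The libraries held 13687876 to 28597221 counts per culture after summing 4 technical replicates, and levels are given as counts per 1000000 (CPM) after trimmed-mean (TMM) scaling. Values of single cultures are listed in the order S8, S10 and S14 for Het 3M and S3, S4, S5 and S12 for WT 3M, and ± after a log2 difference is its standard error. Ezh2 itself, counted over the whole gene, had a lowest, median and highest level of 8.62, 18.2 and 25.2 CPM in Het 12M, and 7.64 (S2), 35.7 (S6), 13.1 (S7) and 22.8 (S13) CPM in WT 12M. Ezh2 had 11.8, 12.8 and 8.47 CPM in Het 3M, and 13.6, 13.5, 14.3 and 9.17 CPM in WT 3M. The groups overlapped, Ezh2 was highest in S6, and Het against WT did not differ past the threshold at 12 months (log2 -0.16 ± 0.36, adjusted p = 0.924) or at 3 months (log2 -0.19 ± 0.43, adjusted p = 1). The counts do not separate floxed exons, so they are no check of recombination. Stromal markers summed to 8654 to 30935 CPM in Het 12M, 18442 to 33492 in WT 12M, 21237 to 29412 in Het 3M and 11073 to 26591 in WT 3M, with all 12 markers at 1 CPM or more in S13 and S15. Several libraries stood apart. Het 12M S9 had 34960 CPM of macrophage and myeloid markers and was highest for all 8 of them, WT 12M S6 had 1176 CPM of Schwann and neural crest markers and was highest for 6 of 7, and Het 12M S15 had lower levels of long transcripts. Sex-linked transcripts also went against the labelled sex in WT 12M: Xist was at 363 CPM in S2 and 295 CPM in S13, both with a male label, while S6, with a female label, had 0.192 CPM of Xist and a mean of 28.4 CPM over 4 Y-linked genes, and S7 had both.

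The replication genes differed widely between cultures. Across the 17 cultures a member's highest level was between 2.14 times (Orc6) and 18.2 times (E2f8) its lowest, with a median of 6.79 times. At least 5-fold was spanned by 30 of 40 members. The same spans were not computed over all genes, so these values describe the members alone. WT 12M S6 was the highest culture for 28 members, Het 12M S15 for 5, WT 12M S13 for 4, Het 12M S9 for 2 and Het 12M S1 for 1. Over all genes tested, S6 was the highest culture for 10.6%, S15 for 22.5%, S13 for 4.26%, S9 for 14.2% and S1 for 6.45%, so the members' counts for S15, S9 and S1 were below those shares of 40. WT 3M S5 was the lowest culture for 20 members, and for 14.7% of all genes. No member was highest in a Het 3M or WT 3M culture.

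**Figure D1:**
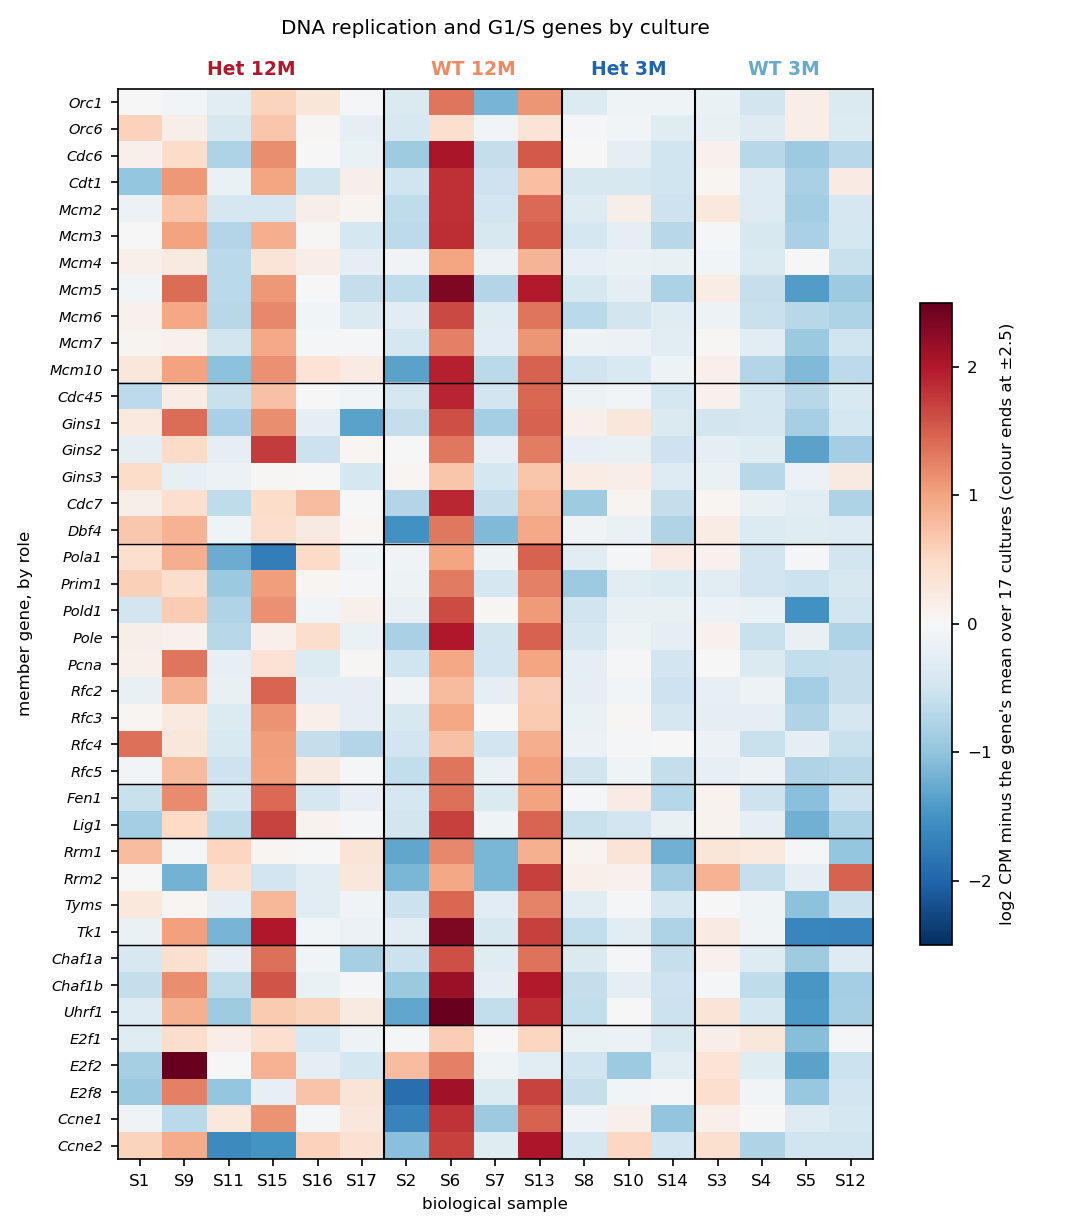
Each cell is a member's log2 CPM in 1 culture minus its mean over the 17 cultures; rows run by role from licensing (top) to E2F and cyclin E (bottom), separated by lines, and columns are cultures in their 4 groups. WT 12M S6 and S13 are red almost throughout (40 and 39 of 40 members above their mean), S9 and S15 in Het 12M are above the mean for 35 members each, and WT 12M S2 and S7 are above it for 2 each.

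WT 12M held the widest split. S6 and S13 were its 2 highest cultures for 39 of 40 members, while that order held for 28.7% of all genes tested. The pair was noticed from these values, so the count is a description with no test. S6 and S13 were the 2 highest of all 17 cultures for 25 members, and S6, S13, S15 and S9 the 4 highest for 23. The mean log2 CPM over the 40 members was 4.95 in S6, 4.66 in S13, 4.17 in S15 and 4.06 in S9, and between 2.73 (S5) and 3.51 (S3) in the remaining cultures. Relative to each gene's mean, the median member was at 1.53 (log2) in S6, 1.27 in S13, -0.50 in S2 and -0.41 in S7. Within Het 12M the same measure was 0.92 in S15, 0.56 in S9, 0.00 in S1 and S16, -0.06 in S17 and -0.50 in S11. The same measure lay between -0.46 (S14) and -0.09 (S10) in Het 3M, and between -0.81 (S5) and 0.07 (S3) in WT 3M. The range was wider in each 12-month group, but it came from 6 cultures in Het 12M, 4 in WT 12M, 3 in Het 3M and 4 in WT 3M. A range tends to widen with the number of cultures. Without S15 and S9, Het 12M lay between -0.50 and 0.00, inside the range of WT 3M. In bulk RNA, more cells in S phase and more RNA per cell cannot be told apart.

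Markers of other cell types did not follow a single line with these levels. Macrophage and myeloid markers summed to 34.1 CPM in S15, 40.2 in S6 and 64.5 in S13, the lowest of the 17 cultures, but to 34960 in S9. By group the same sum ran from 34.1 to 34960 CPM in Het 12M, 40.2 to 2347 in WT 12M, 134 to 1223 in Het 3M and 135 to 1598 in WT 3M, and 4 of 8 markers were at 1 CPM or more in S6, S13 and S15, with Adgre1 and Ptprc at 0 in S15. Schwann and neural crest markers ran from 18.2 to 97.1 CPM in Het 12M, 22.9 to 1176 in WT 12M, 42.6 to 111 in Het 3M and 28.1 to 105 in WT 3M. Sox10, the defining factor of that lineage, was at 231 CPM in S6 and 0.190 CPM in S13, so the second-highest culture for the replication genes had the Schwann sum at the foot of its group. Endothelial markers summed to at most 12.8 CPM in Het 12M, 11.3 in WT 12M, 38.0 in Het 3M and 75.5 in WT 3M, and all 5 were at 0 in S15. The part of other cell types in the replication gene levels was not tested.

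Genes of G2 and mitosis, a list of 18 that includes Mki67, Top2a and Cdk1, put the same 4 cultures and S16 at the top. Their mean log2 CPM was 5.54 in S6, 4.67 in S13, 4.31 in S15 and 4.15 in S9. S16, also Het 12M, had a mitosis mean of 4.16 with a replication mean of 3.48. S6 and S13 were the 2 highest WT 12M cultures for all 18, and 14 of 18 were highest in S6. The lowest mitosis mean, 2.27, was in Het 12M S11.

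**Figure D2:**
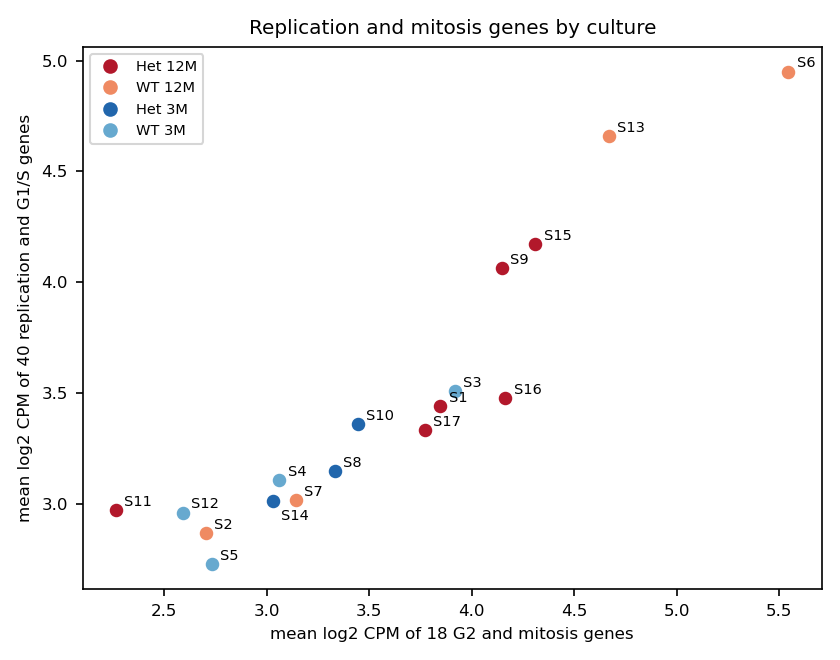
Each point is a culture, with the mean log2 CPM of 18 G2 and mitosis genes on the x axis and of the 40 replication and G1/S genes on the y axis, coloured by group. S6 and S13 of WT 12M (4.95 and 4.66 on the y axis) and S15 and S9 of Het 12M (4.17 and 4.06) lie above all others, while S2 and S7 of WT 12M lie among the 3-month cultures.

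Among the licensing genes, Mcm5, a subunit of the helicase ring whose promoter match is printed above, had a lowest, median and highest level of 10.04, 15.6 and 42.5 CPM in Het 12M, and 10.2 (S2), 80.7 (S6), 9.63 (S7) and 63.8 (S13) CPM in WT 12M. Mcm5 had 12.04, 13.8 and 9.21 CPM in Het 3M, and 18.2, 10.7, 6.06 and 8.54 CPM in WT 3M. S6 and S13 were the highest of all cultures, S2 and S7 lay inside the Het 3M and WT 3M range, and the groups overlapped. The fitted difference was log2 1.92 ± 0.66, adjusted p = 0.553 for WT 12M against WT 3M and log2 -0.94 ± 0.57, adjusted p = 0.676 for Het 12M against WT 12M. Mcm2, another ring subunit, had a lowest, median and highest level of 13.9, 18.1 and 30.2 CPM in Het 12M, and 11.9 (S2), 65.9 (S6), 13.3 (S7) and 49.8 (S13) CPM in WT 12M. Mcm2 had 14.9, 20.6 and 12.97 CPM in Het 3M, and 22.3, 14.8, 10.1 and 13.96 CPM in WT 3M, again with S6 and S13 above all other cultures. It had one of the 3 smallest p values of the members for Het 12M against WT 12M (log2 -0.88 ± 0.42, adjusted p = 0.597), with WT 12M against WT 3M at log2 1.20 ± 0.47, adjusted p = 0.586. Mcm6, which has 3 matches in its printed window, had a lowest, median and highest level of 25.02, 41.1 and 93.7 CPM in Het 12M, and 33.8 (S2), 127 (S6), 32.9 (S7) and 102 (S13) CPM in WT 12M. Mcm6 had 25.5, 29.4 and 32.8 CPM in Het 3M, and 37.2, 27.5, 24.9 and 23.7 CPM in WT 3M. S15 and S9 of Het 12M came next after S6 and S13. Mcm6 had the smallest p of any member for WT 12M against WT 3M (log2 1.38 ± 0.46, adjusted p = 0.552, 95% interval 0.41 to 2.36), and its difference for Het 12M against Het 3M was log2 0.83 ± 0.47, adjusted p = 0.946.

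Cdc6, the loader ATPase, had a lowest, median and highest level of 2.45, 4.44 and 9.55 CPM in Het 12M, and 2.24 (S2), 17.8 (S6), 2.77 (S7) and 12.5 (S13) CPM in WT 12M. Cdc6 had 4.18, 3.61 and 2.96 CPM in Het 3M, and 4.55, 2.56, 2.21 and 2.57 CPM in WT 3M. Again S6 and S13 were highest, then S15, and Cdc6 spanned 8.03-fold from S5 to S6. Its difference was log2 1.57 ± 0.58, adjusted p = 0.567 for WT 12M against WT 3M and log2 -0.80 ± 0.51, adjusted p = 0.695 for Het 12M against WT 12M. Cdt1, the other loading factor, whose protein is destroyed once S phase starts, had a lowest, median and highest level of 3.48, 6.91 and 14.7 CPM in Het 12M, and 4.88 (S2), 24.6 (S6), 4.79 (S7) and 11.7 (S13) CPM in WT 12M. Cdt1 had 5.22, 5.21 and 4.89 CPM in Het 3M, and 7.13, 5.47, 3.89 and 7.99 CPM in WT 3M. S9 was second to S6 here, and S1 of Het 12M was the lowest of all cultures. The fitted difference was log2 -0.44 ± 0.47, adjusted p = 0.813 for Het 12M against WT 12M and log2 0.73 ± 0.54, adjusted p = 0.946 for Het 12M against Het 3M. Of the other 6 licensing genes, Orc1, Mcm3, Mcm4, Mcm7 and Mcm10 had S6 highest and S13 second, and Orc6 had S15 highest. Fitted differences over the 11 ran from 0.27 to 1.92 (log2) for WT 12M against WT 3M, all positive, and from -0.94 to 0.08 for Het 12M against WT 12M, where Orc6 alone was positive.

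Helicase activation followed the same order of cultures. Cdc45, which joins MCM and GINS in the active helicase, had a lowest, median and highest level of 4.57, 7.11 and 12.1 CPM in Het 12M, and 5.34 (S2), 27.5 (S6), 5.19 (S7) and 19.8 (S13) CPM in WT 12M. Cdc45 had 6.67, 6.91 and 5.35 CPM in Het 3M, and 7.83, 5.37, 4.47 and 5.58 CPM in WT 3M. S6 and S13 exceeded all others, and S2 and S7 (5.34 and 5.19 CPM) lay inside the range of the 3-month groups. Cdc45 had the smallest p of the members for Het 12M against WT 12M, log2 -0.98 ± 0.42, adjusted p = 0.577 with an unadjusted p of 0.0346 and a 95% interval of -1.87 to -0.08. Without S6 that difference was -0.46, and without S13 it was -0.80. Gins2, a GINS subunit, had a lowest, median and highest level of 8.23, 11.3 and 40.4 CPM in Het 12M, and 11.8 (S2), 30.1 (S6), 10.3 (S7) and 29.2 (S13) CPM in WT 12M. Gins2 had 10.4, 10.5 and 8.36 CPM in Het 3M, and 10.1, 9.71, 4.71 and 6.60 CPM in WT 3M. It was the only member whose 4 WT 12M values all lay above the 4 WT 3M values, a pattern met by 4.03% of all genes, and by 4.07% in the lower direction (log2 1.39 ± 0.49, adjusted p = 0.567). Its highest value in Het 12M was S15, 40.4 CPM against 16.7 in the next culture, and 67.3% of its exon bases overlap exons of Gse1 on the other strand. Gins1 had a lowest, median and highest level of 0.783, 2.18 and 5.76 CPM in Het 12M, and 1.38 (S2), 6.72 (S6), 1.14 (S7) and 6.13 (S13) CPM in WT 12M. Gins1 had 2.34, 2.63 and 1.65 CPM in Het 3M, and 1.52, 1.58, 1.154 and 1.54 CPM in WT 3M. All 3 Het 3M values lay above all 4 WT 3M values for Gins1, as for Rfc4, a pattern met by 3.21% of all genes and by 3.57% in the lower direction, and the fitted difference at 3 months was log2 0.61 ± 0.69, adjusted p = 1. Dbf4, which activates the Cdc7 kinase, had a lowest, median and highest level of 9.65, 13.1 and 19.1 CPM in Het 12M, and 3.56 (S2), 26.1 (S6), 4.75 (S7) and 20.1 (S13) CPM in WT 12M. Dbf4 had 9.75, 9.18 and 6.14 CPM in Het 3M, and 11.8, 8.18, 8.41 and 8.23 CPM in WT 3M. Here S2 and S7 were the 2 lowest of all cultures, and S6 and S13 the 2 highest, so that the WT 12M mean was close to the Het 12M mean (log2 0.01 ± 0.44, adjusted p = 0.997). Gins3 and Cdc7, the other 2, differed by -0.36 and -0.51 (log2) for Het 12M against WT 12M and by 0.49 and 1.05 for WT 12M against WT 3M.

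Among the polymerases, Pola1, the catalytic subunit of the priming polymerase, had a lowest, median and highest level of 2.42, 9.36 and 15.5 CPM in Het 12M, and 7.81 (S2), 16.4 (S6), 7.52 (S7) and 23.04 (S13) CPM in WT 12M. Pola1 had 6.92, 7.99 and 9.55 CPM in Het 3M, and 8.86, 6.01, 8.08 and 6.01 CPM in WT 3M. S13 was highest and S6 second, but S15, in the top 3 for 24 members, was the lowest of all 17 cultures with 2.42 CPM. The difference was log2 -0.67 ± 0.45, adjusted p = 0.703 for Het 12M against WT 12M. Prim1, the primase subunit of the same complex, had a lowest, median and highest level of 4.50, 10.4 and 17.9 CPM in Het 12M, and 7.87 (S2), 21.3 (S6), 6.42 (S7) and 20.9 (S13) CPM in WT 12M. Prim1 had 4.58, 7.22 and 6.82 CPM in Het 3M, and 7.22, 6.16, 5.96 and 6.56 CPM in WT 3M, and S15 came after S6 and S13. Its difference for Het 12M against Het 3M was log2 0.80 ± 0.43, adjusted p = 0.946, the second-smallest p of the members there. Pole, the catalytic subunit of the leading-strand polymerase, had a lowest, median and highest level of 5.58, 9.78 and 12.4 CPM in Het 12M, and 5.11 (S2), 36.3 (S6), 6.55 (S7) and 25.4 (S13) CPM in WT 12M. Pole had 6.77, 8.25 and 7.62 CPM in Het 3M, and 9.68, 6.11, 7.98 and 5.22 CPM in WT 3M. S6 and S13 were highest, and the highest Het 12M value, 12.4 CPM, lay below both. Pole was the other member with an unadjusted p under 0.05 for Het 12M against WT 12M (log2 -0.99 ± 0.43, adjusted p = 0.577, unadjusted p = 0.0361), and without S6 its difference was -0.41.

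Pcna, the sliding clamp, had a lowest, median and highest level of 27.8, 36.9 and 88.6 CPM in Het 12M, and 24.8 (S2), 69.1 (S6), 25.2 (S7) and 69.2 (S13) CPM in WT 12M. Pcna had 29.8, 34.4 and 25.3 CPM in Het 3M, and 35.3, 27.2, 22.9 and 23.7 CPM in WT 3M. Its highest culture was S9, at 88.6 CPM, ahead of S13 and S6. The differences were log2 -0.09 ± 0.35, adjusted p = 0.962 for Het 12M against WT 12M and log2 0.79 ± 0.39, adjusted p = 0.617 for WT 12M against WT 3M. Rfc3, a subunit of the clamp loader, had a lowest, median and highest level of 11.7, 15.7 and 32.4 CPM in Het 12M, and 11.2 (S2), 29.1 (S6), 14.9 (S7) and 23.3 (S13) CPM in WT 12M. Rfc3 had 13.2, 15.01 and 11.1 CPM in Het 3M, and 12.5, 12.4, 8.75 and 11.03 CPM in WT 3M. S15 was highest and S6 second, and the 3-month groups differed by log2 0.23 ± 0.36, adjusted p = 1. Across the 9 polymerase and clamp genes the fitted difference ran from 0.69 to 1.34 for WT 12M against WT 3M, and from -0.99 to 0.08 for Het 12M against WT 12M, where Rfc2 and Rfc4 were the positive values.

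Lig1, the ligase that seals Okazaki fragments, had a lowest, median and highest level of 12.1, 22.2 and 69.7 CPM in Het 12M, and 15.7 (S2), 70.8 (S6), 20.1 (S7) and 59.5 (S13) CPM in WT 12M. Lig1 had 14.6, 15.6 and 19.2 CPM in Het 3M, and 23.1, 18.2, 9.42 and 12.6 CPM in WT 3M. S6 and S15 were nearly equal at the top (70.8 and 69.7 CPM), S13 came next, and S5 was lowest at 9.42 CPM. The difference was log2 1.39 ± 0.55, adjusted p = 0.586 for WT 12M against WT 3M. Fen1, the flap nuclease that works beside it, had S15 highest and S6 second, but 78.8% of its exon bases overlap a gene on the other strand.

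Nucleotide supply held a gene with another order of cultures. Rrm2, the S-phase subunit of ribonucleotide reductase, had a lowest, median and highest level of 22.7, 46.8 and 67.8 CPM in Het 12M, and 23.3 (S2), 102 (S6), 23.4 (S7) and 169.8 (S13) CPM in WT 12M. Rrm2 had 56.3, 55.6 and 28.3 CPM in Het 3M, and 94.5, 34.9, 44.2 and 144 CPM in WT 3M. S13 was highest, but WT 3M S12 came second with 144 CPM and S9, above the mean for 35 members, was the lowest of all cultures with 22.7 CPM. The WT 12M and WT 3M means were nearly the same, 79.5 ± 70.6 and 79.4 ± 50.5 CPM (SD, n = 4 each), and the fitted difference between them was log2 0.00 ± 0.59, adjusted p = 1. Rrm2 had the smallest p of the members at 3 months, where it was lower in Het 3M (log2 -0.77 ± 0.65, adjusted p = 1, unadjusted p = 0.252). Tk1, the salvage kinase for thymidine, had a lowest, median and highest level of 3.87, 8.16 and 35.5 CPM in Het 12M, and 7.23 (S2), 44.7 (S6), 6.59 (S7) and 28.9 (S13) CPM in WT 12M. Tk1 had 5.67, 7.17 and 5.12 CPM in Het 3M, and 10.2, 8.23, 2.79 and 2.73 CPM in WT 3M. It spanned 16.4-fold, from 2.73 CPM in S12 to 44.7 CPM in S6, with S15 second. The difference was log2 1.87 ± 0.72, adjusted p = 0.579 for WT 12M against WT 3M and log2 1.18 ± 0.74, adjusted p = 0.946 for Het 12M against Het 3M. Without S15 the Het 12M against Het 3M value was 0.60. Tyms, thymidylate synthase, had a lowest, median and highest level of 11.1, 13.2 and 23.8 CPM in Het 12M, and 9.24 (S2), 36.7 (S6), 11.1 (S7) and 31.8 (S13) CPM in WT 12M. Tyms had 11.2, 13.1 and 9.95 CPM in Het 3M, and 13.4, 12.4, 6.54 and 9.21 CPM in WT 3M. Its difference was log2 -0.59 ± 0.36, adjusted p = 0.686 for Het 12M against WT 12M. Rrm1, the large reductase subunit, differed by -0.01 (log2) there and by 0.36 for WT 12M against WT 3M, and S2 and S7 were its 2 lowest WT 12M cultures and lay below most 3-month cultures.

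**Figure D3:**
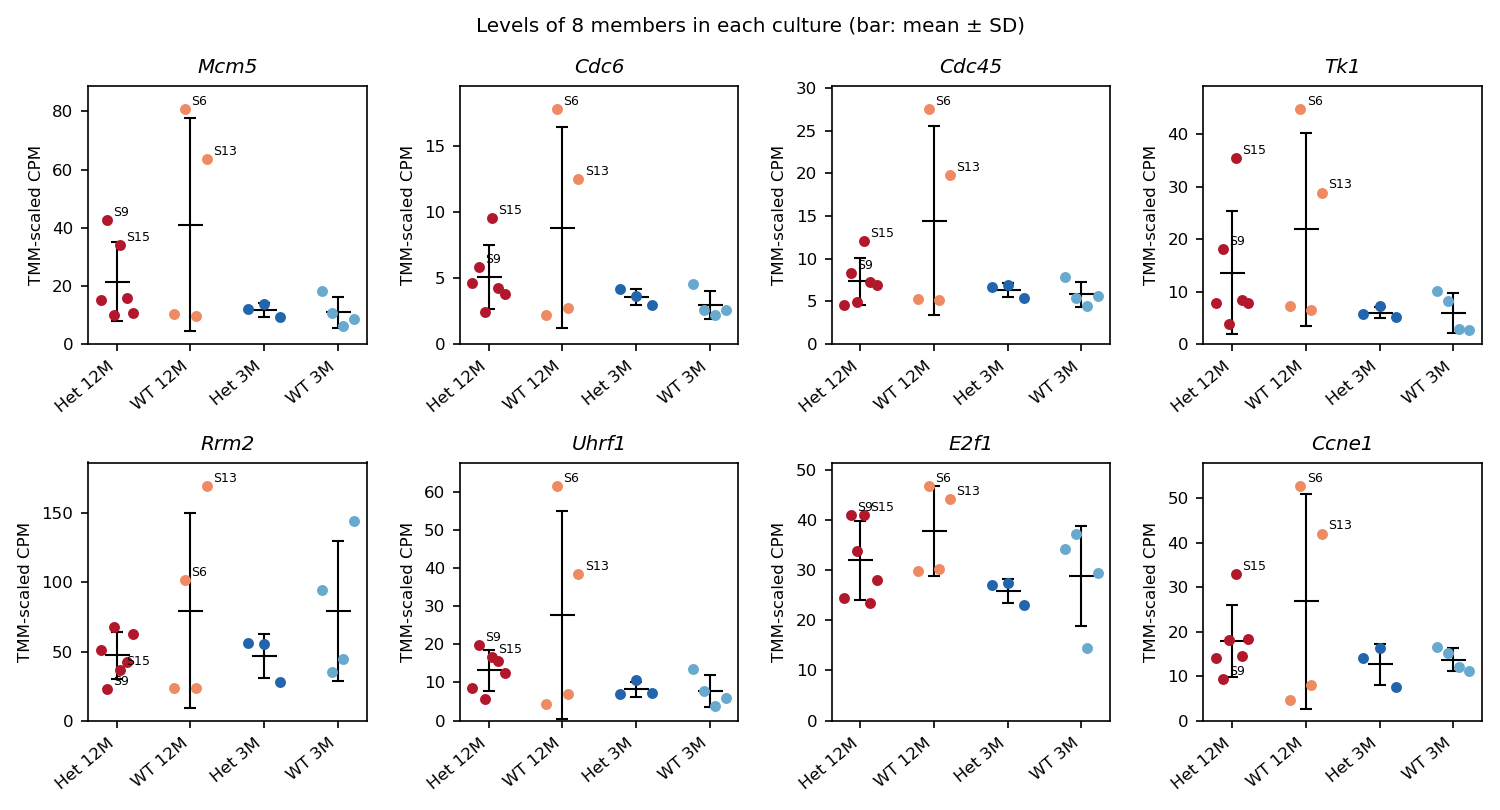
TMM-scaled CPM of 8 members (y axis, from 0) in each culture (points), grouped as Het 12M, WT 12M, Het 3M and WT 3M, with the mean and SD in black; S6, S9, S13 and S15 are named. In WT 12M, S6 and S13 stand apart from S2 and S7, as in Mcm5 with 80.7 and 63.8 against 10.2 and 9.63 CPM, and Rrm2 differs in having a high WT 3M culture (144 CPM).

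The 3 chromatin genes had the highest median of the 7 roles for WT 12M against WT 3M, 1.84 (log2). Chaf1b, the middle subunit of chromatin assembly factor 1, which deposits histones behind the fork, had a lowest, median and highest level of 3.97, 5.78 and 18.8 CPM in Het 12M, and 3.22 (S2), 28.2 (S6), 5.32 (S7) and 24.9 (S13) CPM in WT 12M. Chaf1b had 4.08, 5.31 and 4.32 CPM in Het 3M, and 6.07, 3.94, 2.21 and 3.40 CPM in WT 3M. S6, S13 and S15 were highest and S5 lowest. Its difference for WT 12M against WT 3M was the largest of the 40, log2 1.98 ± 0.66, adjusted p = 0.552. Uhrf1, which brings the maintenance methyltransferase to newly copied DNA, had a lowest, median and highest level of 5.73, 14.01 and 19.9 CPM in Het 12M, and 4.25 (S2), 61.5 (S6), 6.95 (S7) and 38.3 (S13) CPM in WT 12M. Uhrf1 had 6.92, 10.5 and 7.34 CPM in Het 3M, and 13.4, 7.78, 3.89 and 5.93 CPM in WT 3M. It spanned 15.8-fold from S5 to S6, and its difference for Het 12M against WT 12M was the most negative of the 40 (log2 -1.08 ± 0.58, adjusted p = 0.642; -0.33 without S6). Chaf1a, the large subunit, had S6 highest and S15 second, and 52.5% of its exon bases overlap Ubxn6 on the other strand.

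The E2F factors differed in which cultures were high. E2f1, an activator of the genes above, had a lowest, median and highest level of 23.4, 30.95 and 40.97 CPM in Het 12M, and 29.8 (S2), 46.8 (S6), 30.3 (S7) and 44.3 (S13) CPM in WT 12M. E2f1 had 27.1, 27.5 and 23.1 CPM in Het 3M, and 34.2, 37.2, 14.6 and 29.4 CPM in WT 3M. Its span of 3.21-fold was among the smallest of the 40, and the difference was log2 0.39 ± 0.28, adjusted p = 0.691 for WT 12M against WT 3M and log2 -0.24 ± 0.25, adjusted p = 0.808 for Het 12M against WT 12M. E2f2, a second activator, had a lowest, median and highest level of 0.653, 1.13 and 7.62 CPM in Het 12M, and 2.18 (S2), 3.12 (S6), 1.14 (S7) and 0.998 (S13) CPM in WT 12M. E2f2 had 0.846, 0.619 and 1.02 CPM in Het 3M, and 1.60, 0.985, 0.433 and 0.830 CPM in WT 3M. S9 was highest with 7.62 CPM, S6 second with 3.12 CPM, and S13 lay near the middle at 0.998 CPM. E2f2 had the smallest p of the members for Het 12M against Het 3M (log2 1.46 ± 0.76, adjusted p = 0.946, unadjusted p = 0.0706), and without S9 the difference was 0.55. E2f8, a repressor that acts late in S phase, had a lowest, median and highest level of 1.27, 2.75 and 6.33 CPM in Het 12M, and 0.632 (S2), 11.5 (S6), 2.02 (S7) and 8.55 (S13) CPM in WT 12M. E2f8 had 1.69, 2.48 and 2.502 CPM in Het 3M, and 3.49, 2.46, 1.30 and 1.82 CPM in WT 3M. It had the widest span of the members, with S2 of WT 12M lowest at 0.632 CPM and S6 of the same group highest at 11.5 CPM (log2 1.32 ± 0.71, adjusted p = 0.637).

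Cyclin E1 (Ccne1), which with its kinase triggers origin firing, had a lowest, median and highest level of 9.34, 16.4 and 32.9 CPM in Het 12M, and 4.65 (S2), 52.7 (S6), 8.001 (S7) and 42.04 (S13) CPM in WT 12M. Ccne1 had 14.1, 16.4 and 7.56 CPM in Het 3M, and 16.5, 15.2, 11.97 and 11.1 CPM in WT 3M. The highest were S6 and S13, then S15, and S2 and S14 were the 2 lowest. The difference was log2 -0.59 ± 0.52, adjusted p = 0.771 for Het 12M against WT 12M. Cyclin E2 (Ccne2) had a lowest, median and highest level of 1.03, 4.58 and 6.33 CPM in Het 12M, and 1.55 (S2), 10.9 (S6), 2.64 (S7) and 13.6 (S13) CPM in WT 12M. Ccne2 had 2.44, 4.74 and 2.33 CPM in Het 3M, and 4.39, 1.92, 2.31 and 2.29 CPM in WT 3M. S13 and S6 were highest, and S11 and S15 of Het 12M were the 2 lowest of all cultures. The difference was log2 -0.93 ± 0.60, adjusted p = 0.695 for Het 12M against WT 12M and log2 1.39 ± 0.68, adjusted p = 0.614 for WT 12M against WT 3M. CPM were also divided by each gene's annotated exon length, which is not the length of the transcripts present, so the ranks depend on annotation. Per kilobase of exon, Rrm2 had the highest mean level of the 40 in WT 12M, Het 3M and WT 3M (28.7, 16.9 and 28.7 CPM per kb). Pcna was highest in Het 12M (18.5). E2f2 had the lowest level in all 4 groups (0.470, 0.381, 0.170 and 0.197 in Het 12M, WT 12M, Het 3M and WT 3M).

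The comparison of WT 12M with WT 3M asks how age changes WT cultures. All 40 members were fitted higher in WT 12M, where 53.8% of all genes were (46.2% were lower), with a median log2 difference of 1.08 against 0.04 over all genes. No gene passed an adjusted p of 0.05 in edgeR's quasi-likelihood test (0 of 14897, 0%). At an unadjusted p under 0.05 there were 22 members, all higher, and 4.67% of all genes were called higher and 3.55% lower by that rule. They were 8 of 11 licensing genes, 3 of 6 helicase-activation genes, 5 of 9 polymerase and clamp genes, 1 of 2 Okazaki-joining genes, 2 of 4 nucleotide-supply genes, 3 of 3 chromatin genes and 0 of 5 E2F and cyclin E genes. DESeq2 called 53 genes (0.356% of those tested) and limma voom with sample quality weights 1508 of 14897, none of them a member. The count of 22 rested on few cultures: it was 3 without S6, 11 without S13 and 12 without WT 3M S5. Over all genes the count by that rule was 1224 with all cultures, 1016 without S6, 1231 without S13 and 715 without S5. The members' median was 0.70 without S6. Leaving out S9, S15 and S6 together gave 2 called genes (0.0136% of those tested), none of them a member. Under the voom fit 20 members were higher and 20 lower. That fit gave weights of 0.327 to S6, 0.449 to S13, 2.04 to S7 and 1.57 to S2. In WT 3M its weights were 7.32 for S3, 1.96 for S4, 0.306 for S5 and 0.937 for S12.

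The comparison of Het 12M with WT 12M asks about Ezh2 dose in older cultures. Here 35 of 40 members were fitted lower in Het 12M, where 44.3% of all genes were (55.7% were higher), with a median log2 difference of -0.49 against 0.05 over all genes. No gene was called by edgeR (0 of 14897, 0%), and unadjusted p under 0.05 held for Cdc45 and Pole alone, both lower, which is 2 of 40 against 4.93% of all genes, and no member was higher by that rule (3.44% of all genes). DESeq2 called 106 genes (0.712% of those tested) and voom 171 of 14897, none of them a member. Without S6 the median was -0.12 with 27 of 40 lower, and without S13 it was -0.31. Under the voom fit the median was -0.07, with 16 members higher and 24 lower. Leaving out S2 gave 12 members with an unadjusted p under 0.05, leaving out S7 gave 9 and leaving out Het 12M S15 gave 12. Leaving out S6, S13, S11 or S17 gave 0. Over all genes the count by that rule was 1246 with all cultures, and 1082, 1091 and 1960 without S2, S7 and S15. It was 964, 1210, 1191 and 1148 without S6, S13, S11 and S17. No member had all Het 12M values outside the WT 12M range, against 0.853% of all genes with all values lower and 0.47% with all values higher.

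For Het 12M against Het 3M, the age comparison in Het cultures, 39 of 40 members were fitted higher (57.7% of all genes), and Gins3 alone was lower (42.3% of all genes). The median was 0.52 against 0.07 over all genes. No gene was called by edgeR (0 of 14897, 0%), no member had an unadjusted p under 0.05 (1.56% of all genes higher and 1.72% lower by that rule), and DESeq2 and voom each called 1 gene (0.00671% of those tested), not a member. No member had groups without overlap, against 0.49% of all genes higher and 1.42% lower. The median was 0.28 without S15 and 0.15 with S9, S15 and WT 12M S6 all left out, and 0.17 under the voom fit, where 30 members were higher and 10 lower.

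For Het 3M against WT 3M, 28 members were fitted higher and 12 lower (47.5% and 52.5% of all genes), with a median of 0.07 against -0.02 over all genes. The fitted differences ran from -0.77 (Rrm2) to 0.61 (Gins1). No gene was called by edgeR (0 of 14897, 0%), and no member had an unadjusted p under 0.05 (0.812% of all genes higher, 0.792% lower). DESeq2 called 0 genes and voom 1292 of 14897, none of them a member. The median changed sign without Het 3M S10 (-0.02), WT 3M S5 (-0.02) or WT 3M S12 (-0.01) and was 0.27 without WT 3M S3. Under the voom fit it was -0.18, with 9 members higher and 31 lower. In that fit 4 of 40 members had an unadjusted p under 0.05, beside 3594 of all 14897 genes. Its weights in Het 3M were 8.88 for S8, 2.955 for S10 and 0.695 for S14.

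The genotype-by-age interaction tests whether the age difference in Het cultures departs from that in WT cultures. Its median over the members was -0.58 against 0.08 over all genes, with 35 of 40 members negative (43.7% of all genes), so the fitted age difference was smaller in Het than in WT cultures for those 35 in edgeR. Under the voom fit the direction turned, with a median of 0.145 and 27 members positive and 13 negative. The smallest unadjusted p was 0.117, for Cdc45 (log2 -1.09 ± 0.66, SE), and no gene was called (0 of 14897, 0%; 3.26% of all genes were negative and 2.5% positive at an unadjusted p under 0.05). Without S6 the median was -0.18. The age comparisons and the genotype comparisons share their groups, so their medians are not separate evidence.

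**Figure D4:**
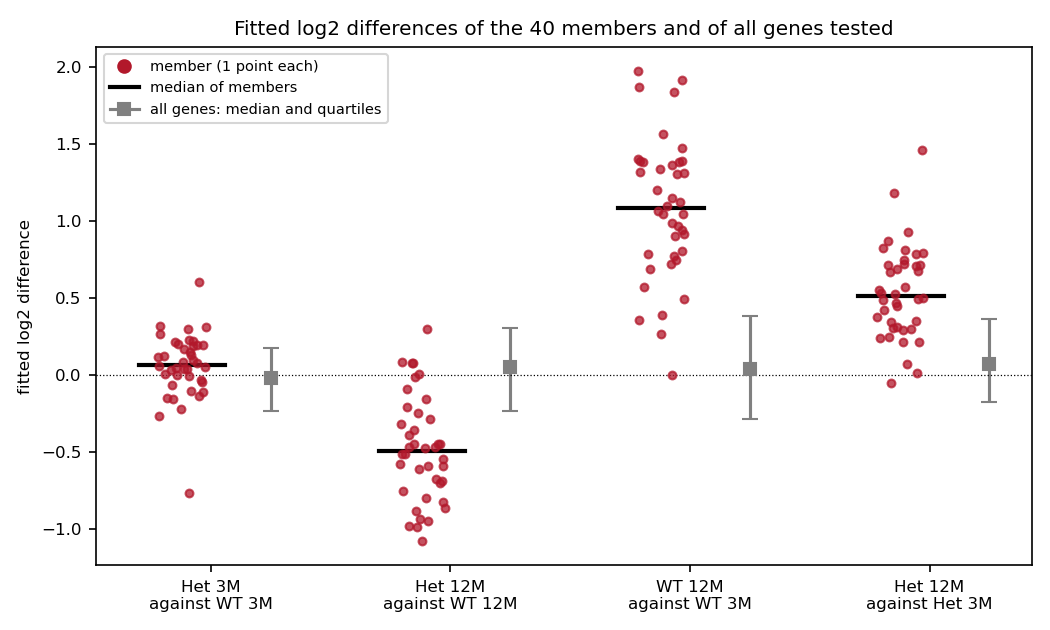
Fitted log2 differences (y axis) of the 40 members (red points, horizontal jitter only) in the 4 pairwise comparisons, with the members' median (black line) and the median and quartiles of all 14897 genes tested (grey square and bars). Medians of the members are 0.07, -0.49, 1.08 and 0.52 from left to right, and no member passed the adjusted threshold in any of them.

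**Figure D5:**
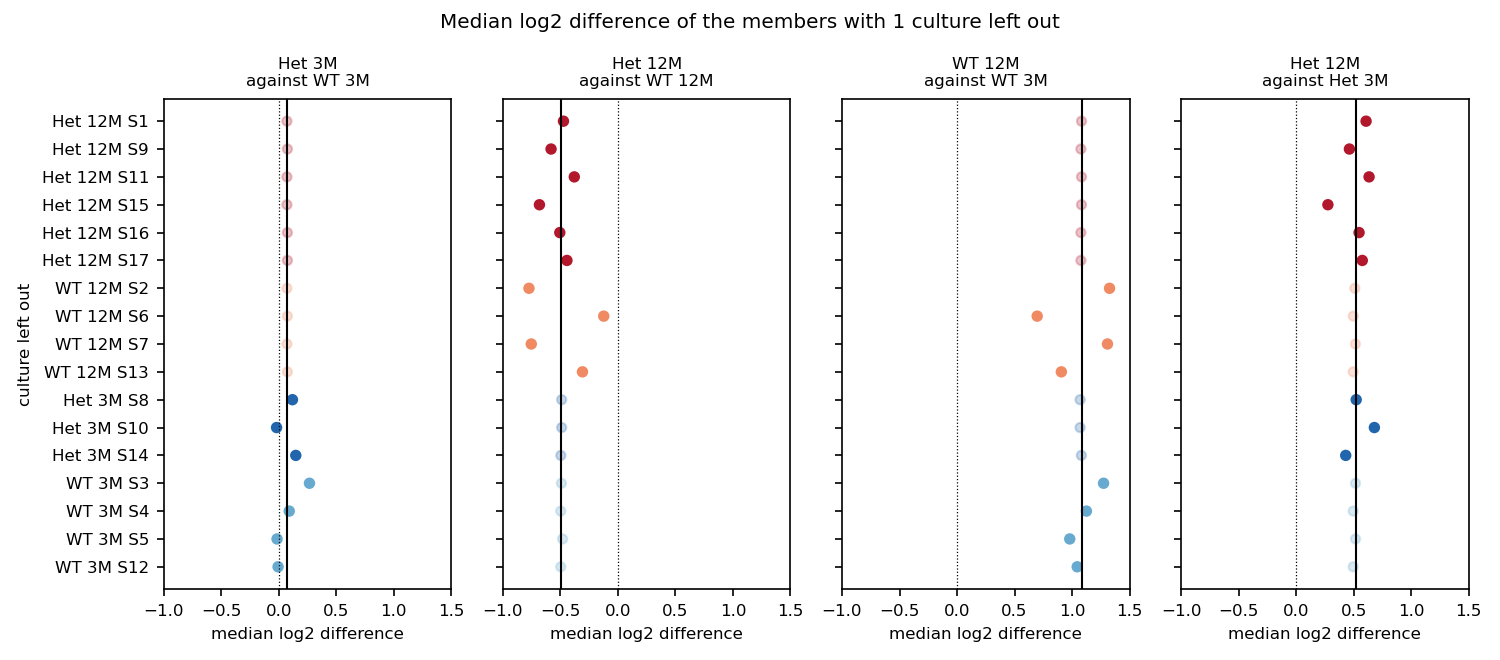
Median log2 difference of the 40 members (x axis) when the culture named on the y axis is left out, 1 panel per comparison; faded points are cultures outside the groups compared, and the black line is the value with all 17 cultures. Leaving out WT 12M S6 brings the median to -0.12 for Het 12M against WT 12M and 0.70 for WT 12M against WT 3M, and leaving out Het 12M S15 brings it to 0.28 for Het 12M against Het 3M.

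Het 12M S15 differed from the other cultures in transcript length over all genes, and the members did not divide cleanly by length there. Over the 14265 tested genes with an exon length, the longest quartile minus the shortest, relative to each gene's mean, was -1.39 (log2) in S15, while in the other cultures that difference ran from -0.19 (S2) to 0.79 (S5). For the 10 members with the longest exons minus the 10 with the shortest, the difference was -0.56 in S15, -0.40 in S5, 0.42 in S9, 0.44 in S13, 0.50 in S16 and 0.56 in S6, and it lay between -0.23 and 0.15 in the remaining cultures. The value in S15 was the lowest of the 17, but no larger in size than that in S6. Among long members, Rfc2 (6.30 kb of exon) was highest in S15 with 92.3 CPM and Chaf1a (8.85 kb) second-highest with 34.5 CPM. Genes on the other strand overlap both (15.1% and 52.5% of exon bases), so their counts can hold other reads. Pola1 (8.81 kb) was lowest of the 17 cultures in S15 with 2.42 CPM, and Mcm2 (6.96 kb) ranked 12 there with 13.9 CPM. Pole and Rrm1, which have the longest exons of the members, ranked 5 and 10 in S15. Ccne2 (3.50 kb), shorter than all of these, was second-lowest there with 1.11 CPM. Among the mitosis genes S15 had 90.8 CPM of Birc5, 4.32 of Mki67 and 0.850 of Cenpf. S11, also Het 12M, had 2.497 CPM of Mki67 and 0.490 of Cenpf. The part of transcript length in the members' values was not tested.

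The other genes of the pathway numbered 64. For WT 12M against WT 3M, 49 of 64 were fitted higher, with a median of 0.46; 19 were higher and 1 (Rb1, the retinoblastoma protein, -0.95) lower at an unadjusted p under 0.05. E2f7, a repressor close to E2f8, had the smallest p: it had a lowest, median and highest level of 1.03, 3.03 and 3.98 CPM in Het 12M, and 1.78 (S2), 13.5 (S6), 2.07 (S7) and 8.55 (S13) CPM in WT 12M. E2f7 had 1.49, 1.03 and 1.99 CPM in Het 3M, and 2.30, 0.838, 0.914 and 1.70 CPM in WT 3M (log2 difference 2.16 ± 0.62, adjusted p = 0.531). Rpa2, a subunit of the single-strand binding protein, had 22.1, 48.2, 21.0 and 40.5 CPM in WT 12M S2, S6, S7 and S13, all above the 16.97, 15.3, 8.17 and 11.2 CPM of WT 3M (log2 1.35 ± 0.41, adjusted p = 0.552). For Het 12M against WT 12M, 45 of 64 were lower, with a median of -0.19 and 6 lower at an unadjusted p under 0.05.

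Cyclin D3 (Ccnd3), which partners Cdk4 and Cdk6 upstream of E2F, was a gene of this list with another order of cultures. It had 35.5, 53.8 and 68.9 CPM (lowest, median and highest) in Het 12M and 104.5, 88.5, 84.1 and 114 CPM in WT 12M S2, S6, S7 and S13, so every Het 12M value lay below every WT 12M value, and S2 and S7 were not low. It had 72.0, 74.6 and 88.3 CPM in Het 3M and 78.3, 83.7, 30.4 and 63.4 CPM in WT 3M. The difference for Het 12M against WT 12M was log2 -0.87 ± 0.25, adjusted p = 0.284 (unadjusted p = 0.0027), which did not pass the threshold over all genes. In the age comparison of Het cultures 50 of 64 were fitted higher, with a median of 0.20, and Gmnn, which encodes the Cdt1 inhibitor geminin, had the smallest p (log2 1.40 ± 0.64, adjusted p = 0.946). At 3 months 34 were higher and 30 lower in Het 3M, with a median of 0.03, and Pole3 had the smallest p (log2 0.50 ± 0.22, adjusted p = 1).

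The 18 mitosis genes were fitted higher for WT 12M against WT 3M without exception (median 1.26, 10 with an unadjusted p under 0.05) and lower for Het 12M against WT 12M in 16 cases (median -0.45, none under 0.05). For Het 12M against Het 3M all 18 were higher (median 0.68), and for Het 3M against WT 3M 15 were (median 0.11). None passed the adjusted threshold.

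Of 7 cell-cycle inhibitors, 3 were fitted higher and 4 lower for WT 12M against WT 3M. Cdkn1c, a kinase inhibitor of imprinted expression, was fitted lower in Het 12M than in WT 12M (log2 -1.82 ± 0.79, adjusted p = 0.577). It was fitted higher in WT 12M than in WT 3M (log2 2.60 ± 0.92, adjusted p = 0.567), with 154 CPM in S2, 4.13 in S6, 56.1 in S7 and 31.2 in S13. In log2 CPM, Cdkn1c was at 3.69 (S1), 5.43 (S9), 1.53 (S11), 4.49 (S15), 4.04 (S16) and 2.86 (S17) in Het 12M. It was at 3.90, 4.13 and 5.91 in Het 3M, and at 2.64, 4.50, 2.78 and 2.39 in WT 3M. So its level was not low in all cultures with high replication genes, as in S9, nor high in all with low ones, as in S11. Cdkn2a, the locus of p16 and Arf and a known target of Polycomb repression, had a lowest, median and highest level of 59.4, 131 and 414 CPM in Het 12M, and 142 (S2), 169 (S6), 120.2 (S7) and 98.3 (S13) CPM in WT 12M. Cdkn2a had 129.6, 149 and 72.6 CPM in Het 3M, and 147, 177, 77.8 and 138 CPM in WT 3M. Its groups overlapped (log2 0.33 ± 0.45, adjusted p = 0.860 for Het 12M against WT 12M). S15 had the highest Cdkn2a level of all cultures together with high replication gene levels.

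The count of some members can hold reads of other genes. The library kit does not mark strand, so reads from overlapping genes on opposite strands cannot be told apart: the overlap was 78.8% of exon bases for Fen1, 67.3% for Gins2, 52.5% for Chaf1a, 17.4% for Ccne2, 15.1% for Rfc2 and 12.7% for Rfc4, and under 12% for the other 34. A Tyms pseudogene had 641 counts over all cultures in the table.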

How the data were processed

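RNA-seq was measured in 17 cultures of mouse long-bone MSCs. The deposited table holds raw counts per Entrez gene for 68 columns, 4 technical replicates of each culture. Reads were aligned to mm10 and counted with Subread and featureCounts, per the submitters' processing notes, without versions; the TruSeq kit named in the labels' protocols does not mark strand. Technical replicates differed by little more than sampling noise (chi-square per degree of freedom 1.02 to 1.06) and were summed, giving 13687876 to 28597221 counts per culture. Between cultures the lowest value was 18.5, for 1 pair, and the second lowest was 40.9. Within Het 3M, S8 and S10 had similar sums of macrophage (1068 and 1223 CPM) and endothelial markers (38.0 and 28.7 CPM), while S14 had 134 and 1.42 CPM. The labels do not say whether S8 and S10 came from separate mice. Rows without a symbol held 0.573% of counts.

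Genes were tested with edgeR 4.0.16 (R 4.3.3; filterByExpr, TMM, quasi-likelihood F-test, group as the only term, all 17 cultures, Benjamini-Hochberg adjustment over 14897 genes, threshold 0.05, 2-sided). Sex was not a term because sex-linked transcripts contradict the labels in WT 12M. The members' median log2 difference with labelled sex as a term was -0.60 for Het 12M against WT 12M. It was 1.10 for WT 12M against WT 3M, 0.37 for Het 12M against Het 3M and 0.16 for Het 3M against WT 3M. For the interaction it was -0.79. A Y-linked expression term gave -0.51, 1.09, 0.50, 0.10 and -0.70 in the same order. The values after ± are standard errors of the log2 difference where an adjusted p follows. The biological coefficient of variation was 0.512, which limits what groups of 3 to 6 can show. Alternatives were DESeq2 1.42.0, limma 3.58.1 voom with sample quality weights, other scalings and filters, labelled sex, each culture left out, 1 technical replicate and libraries that stand apart. The fit was tested on simulated data.

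The members and lists were chosen with earlier results of these data known. Genes named are 20 members fixed as examples of each role, the 3 members with the smallest p in each pairwise comparison, and, outside the members, those with the smallest p. Member rank and split descriptions by culture, Pole3, Rpa2, Rb1, Cdkn1c, Cdkn2a and the mitosis genes cited for S15 were picked after their values were seen.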

Additional observations from a re-analysis of the deposited data

Results flagged for a closer look

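Of 123 sets of values, 1 for each member or Ezh2 in each group of 4 to 6 cultures, 12 held a culture far from the nearest other value of its group by Dixon's criterion. Chance gives about 1 such set in 20, and the groups of 3 were not examined. In Het 12M, S15 was far above the rest for Mcm7 (64.6 CPM), Gins2 (40.4 CPM), Rfc3 (32.4 CPM), Lig1 (69.7 CPM) and Chaf1a (34.5 CPM). S9 was far above the rest of Het 12M for Pcna (88.6 CPM, next 45.1) and E2f2 (7.62 CPM, next 2.36). In WT 3M, S3 was far above the rest for Cdc6 (4.55 CPM), Dbf4 (11.8 CPM) and Ccne2 (4.39 CPM), S5 was far below for Gins1 (1.154 CPM), and S12 was far below for Ezh2 (9.17 CPM). No WT 12M set met the criterion. It looks for 1 lone value, so it can miss the split in which S6 and S13 both lay above S2 and S7 for 39 of 40 members.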

How the results depend on the processing

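The median log2 difference of the members stayed below 0 for Het 12M against WT 12M and above 0 for Het 12M against Het 3M under all 30 alternatives. With 1 culture left out it ranged from -0.77 to -0.12 for Het 12M against WT 12M, 0.70 to 1.33 for WT 12M against WT 3M, 0.28 to 0.68 for Het 12M against Het 3M, -0.02 to 0.27 for Het 3M against WT 3M and -0.82 to -0.18 for the interaction. Voom with sample quality weights moved all 5 medians toward or past 0: to -0.001 for WT 12M against WT 3M, 0.145 for the interaction, -0.068 for Het 12M against WT 12M, 0.168 for Het 12M against Het 3M and -0.18 for Het 3M against WT 3M. The cause was not tested. Genes called with all cultures in edgeR were 0 of 14897, the same genes that DESeq2 and voom were given. DESeq2 called 106 for Het 12M against WT 12M, 53 for WT 12M against WT 3M, 1 for Het 12M against Het 3M and 35 for the interaction. Voom called 171, 1508, 1 and 939 for those 4 and 1292 for Het 3M against WT 3M. For WT 12M against WT 3M, leaving out S9, S15 and S6 together called 2 genes, and leaving out S6 and S15, an alternative chosen after seeing the data, called 1. With 1 culture left out the calls ranged from 0 to 2 for Het 12M against WT 12M, from 0 to 1 for WT 12M against WT 3M, and were 0 for the others. No member was called under any alternative; the smallest adjusted p was 0.0676 (Rrm2, voom, WT 12M against WT 3M). Of 5955 member values under alternatives, 313 changed sign, none of them called. A Y-linked expression term and leaving out S6 with S7 were also added after seeing the data. No paired analysis was possible because the culture numbers are unique to a culture and the shared replicate numbers mark technical replicates of 1 library. Differences smaller than the spread between cultures were not detectable with 3 to 6 cultures a group.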
